A study of Homo sapiens with 48 samples.

Results

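IDO1, LCK and CXCL5 are genes of the immune system that were read at their highest level in undifferentiated human embryonic stem cells (hESC) in these data. They are 3 of the 452 genes on the panel and hold 8 of its 1113 probes, which were taken by the gene symbol in the probe name: 3 for IDO1, 2 for LCK and 3 for CXCL5. The genes were chosen by their read level in hESC against the other groups, so those differences are described here and not tested. The assay, RASL-Seq, captures polyadenylated RNA, joins neighbouring DNA probes that sit on a transcript, and counts the joined pairs as sequencing reads. Each probe pair has its own efficiency, so a level is compared between groups for the same probe and never between probes or genes.

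All 48 libraries came from WA09 (H9), an established hESC line labelled as of normal genotype. The hESC group (4 libraries) had no differentiation treatment. Ectoderm (4 libraries) was made over 6 days in E6 medium with 100 nM LDN-193189 and 2 µM A83-01, inhibitors of BMP and TGF-beta receptors. Mesoderm and endoderm (4 libraries each) were made over 5 days with commercial kits. Embryoid bodies (EBs) are suspended clumps in which stem cells differentiate without direction. They were grown for 7 days in E6 medium from 20000 cells per well, after 24 h with the ROCK inhibitor Y-27632 (Y27 EB, 16 libraries) or with CEPT (CEPT EB, 16 libraries), a mixture of chroman 1, emricasan, polyamines and trans-ISRIB that protects dissociated cells. All cultures descend from 1 line. The labels do not say which libraries came from separate cultures, so p-values measure the spread between these libraries, which may be technical.

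The libraries held 379810 to 5577868 probe reads, and Y27 EB replicate 15 had the lowest total. Levels are given as CPM, counts scaled to library size with TMM factors. Several marker genes had their highest means under the matching labels: PAX6 was at 940 CPM in ectoderm, HAND1 at 505 in mesoderm, SOX17 at 2730 in endoderm and NANOG at 2233 in hESC. SOX2 and PDGFRA went against theirs. SOX2, listed for hESC, was higher in ectoderm (6640 CPM) than in hESC (1280 CPM), and PDGFRA, listed for mesoderm, was higher in endoderm (53.3 CPM) than in mesoderm (16.3 CPM). POU5F1, a core pluripotency factor with 1 probe, was read at only 9.69 ± 3.02 CPM in hESC (SD, n = 4).

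IDO1 is the enzyme that opens the kynurenine pathway of tryptophan breakdown. It is strongly induced by interferon gamma and is known for holding back T cells in tumours and at the border between mother and fetus. LCK is a Src family tyrosine kinase that sits on CD4 and CD8 in T cells and starts signalling from the T cell receptor. CXCL5 is a chemokine that attracts neutrophils through the receptor CXCR2. All are also in the self-renewal set of a qPCR scorecard used to grade pluripotent cultures, beside NANOG, POU5F1, SOX2, DNMT3B, HESX1 and TRIM22.

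LCK lies on chr1:32251265-32286165 (plus strand) and CXCL5 on chr4:73995642-73998677 (minus strand) in RefSeq's GRCh38.p14. LCK probes 421 and 419 are named for positions 1086 and 1275 of transcript NM_005356, which are coding (exons 9 and 11). CXCL5 probes 145, 144 and 146 are named for positions 795, 1703 and 2077 of NM_002994, all in the 3′ UTR (exon 4). Regions were read from the GENCODE 29 transcripts paired with those RefSeq entries.

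The 250 bases before each RefSeq start of LCK and CXCL5 are shown because the windows of LCK and CXCL5 differ in the motifs they hold. LCK has a distal and a proximal promoter, at chr1:32251015-32251264 and chr1:32273871-32274120 (plus strand), and the CXCL5 window is chr4:73998678-73998927 (minus strand). Capitals mark the letters GGAATTTCC of an NF-kB motif or CAGGAAGT of an ETS motif, each searched on both strands.
LCK distal: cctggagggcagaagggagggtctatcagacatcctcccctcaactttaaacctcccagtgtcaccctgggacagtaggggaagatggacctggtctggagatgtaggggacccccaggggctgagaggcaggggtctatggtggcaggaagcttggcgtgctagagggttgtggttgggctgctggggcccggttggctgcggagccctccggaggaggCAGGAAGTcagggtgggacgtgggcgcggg
LCK proximal: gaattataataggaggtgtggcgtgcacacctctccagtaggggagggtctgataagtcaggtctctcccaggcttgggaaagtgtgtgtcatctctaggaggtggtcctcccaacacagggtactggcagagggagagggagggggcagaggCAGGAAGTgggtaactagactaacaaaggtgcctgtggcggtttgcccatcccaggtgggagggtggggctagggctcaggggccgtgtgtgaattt
CXCL5: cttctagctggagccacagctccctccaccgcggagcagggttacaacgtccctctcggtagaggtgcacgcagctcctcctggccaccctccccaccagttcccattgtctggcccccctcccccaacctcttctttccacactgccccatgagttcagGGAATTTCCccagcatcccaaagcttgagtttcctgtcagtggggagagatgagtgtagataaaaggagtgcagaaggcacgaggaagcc
The NF-kB letters start 90 bases before the RefSeq start of CXCL5 and were found in 145 of 35116 windows of this length (0.413%). The ETS letters stand 30 and 97 bases before the LCK starts and were in 2.60% of all windows. TATAAA (10.7% of all windows) and GAAANNGAA, letters of an interferon response motif (6.88%), were in none of these 3 windows. The IDO1 window is not reported here, so this says nothing about IDO1. The matches do not overlap. A match is a run of letters and not a shown binding site, and the lack of one says nothing about a factor.

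In hESC all 8 probes were read in every library. IDO1 probe 382 gave 96.6, 89.4, 82.7 and 71.5 CPM in hESC replicates 1 to 4, from 186, 214, 127 and 127 reads. IDO1 probe 383 gave 50.9, 61.8, 44.3 and 40.0 CPM, and probe 381 gave 13.5, 12.1, 15.6 and 16.3 CPM. No hESC library stood apart for IDO1. LCK probe 419 was at 41.5, 52.6, 43.6 and 45.1 CPM, and LCK probe 421 at 29.1, 37.2, 32.5 and 38.9 CPM. CXCL5 probe 144 was at 54.0, 37.6, 48.2 and 41.1 CPM, probe 146 at 40.0, 35.9, 40.4 and 43.4 CPM, and probe 145 at 15.1, 18.4, 14.3 and 13.5 CPM. Summed over probes, hESC held 149 ± 16.7 CPM of IDO1, 80.1 ± 8.44 of LCK and 100.4 ± 7.29 of CXCL5 (SD, n = 4).

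**Figure D1:**
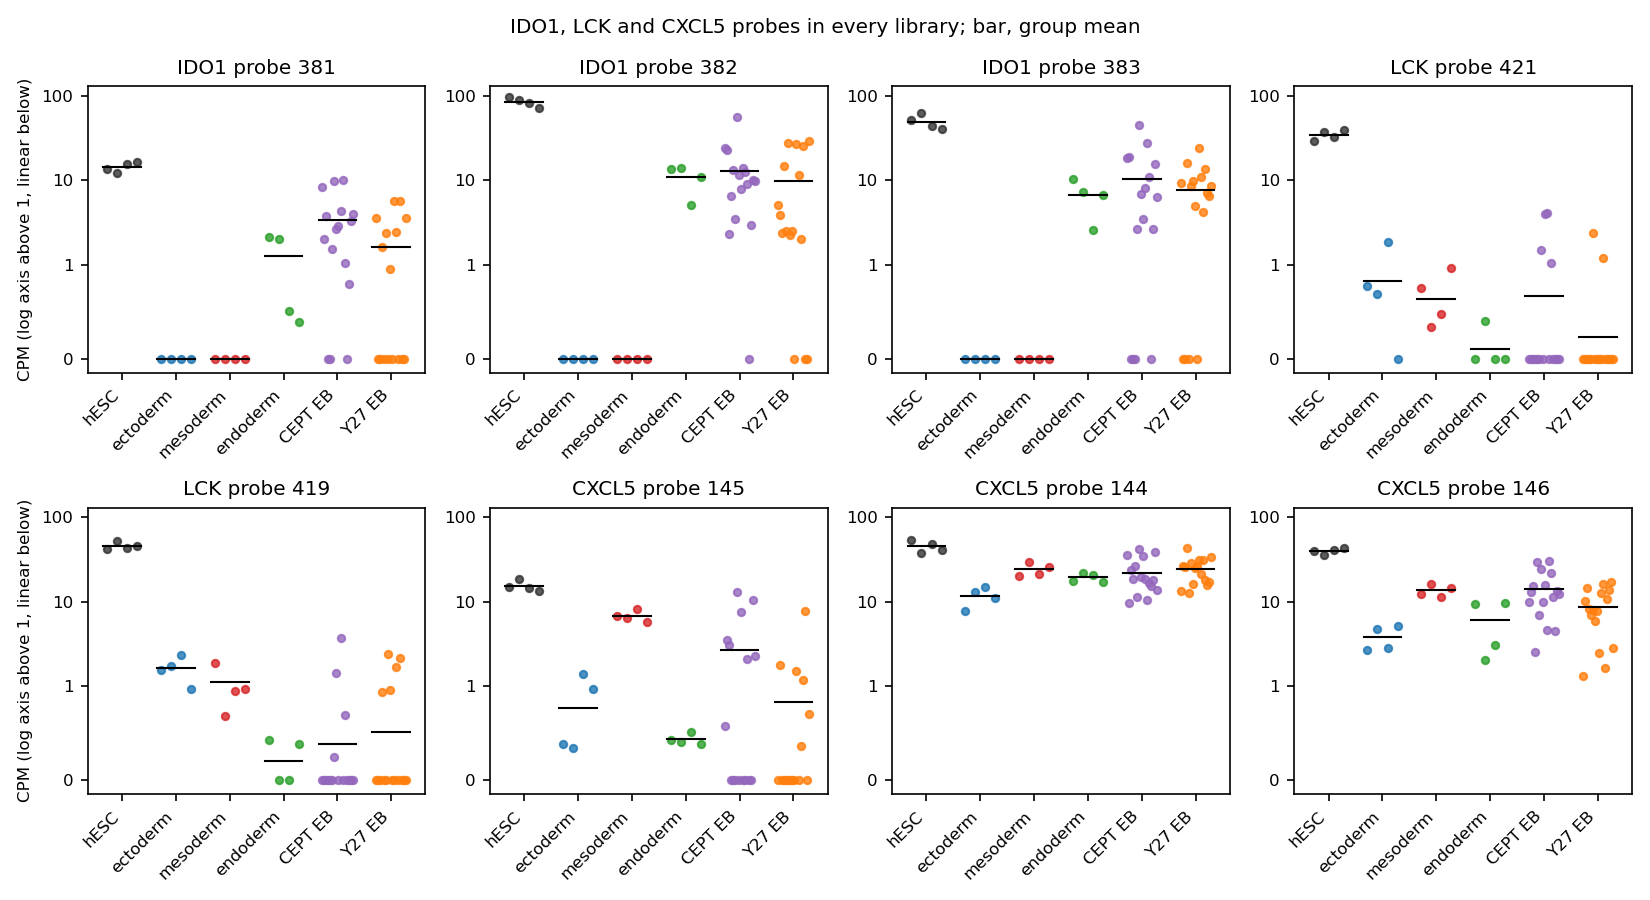
CPM of each probe of IDO1, LCK and CXCL5 (y axis, log above 1 and linear below) in every library of the 6 groups (x axis), with a bar at each group mean. IDO1 is at 0 in the 4 ectoderm and 4 mesoderm libraries, LCK stays under 5 CPM outside hESC, and CXCL5 probe 144 is above 5 CPM in all 48 libraries.

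IDO1, on chromosome 8, split the directed cultures. Ectoderm and mesoderm gave 0 reads with all 3 IDO1 probes in all 8 libraries. A count of 0 allows up to 3 reads in a library, which is 0.965 to 1.42 CPM in these libraries; as the reads are PCR copies, this covers counting error only. Endoderm kept a low level. Probe 382 gave 13.7, 14.1, 5.08 and 10.9 CPM in endoderm replicates 1 to 4, probe 383 gave 10.3, 7.25, 2.54 and 6.61 CPM, and probe 381 gave 2.14, 2.01, 0.508 and 0.389 CPM. Replicate 3 was the lowest for probes 382 and 383. Summed over probes, endoderm IDO1 was at 18.9 ± 7.94 CPM (SD, n = 4), or 12.7% of hESC. IDO1 probes 381, 382 and 383 are named for positions 1034, 1136 and 1382 of NM_002164 and were not placed in a transcript region.

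Endoderm exceeded ectoderm and mesoderm with IDO1 probe 382 by edgeR's quasi-likelihood test, with p-values adjusted over all probes tested (Benjamini-Hochberg). Because ectoderm was at 0, sizes are bounds against 3 reads in each ectoderm library. Endoderm was at least 9.62-fold higher than ectoderm (adjusted p 6.42e-07) and at least 9.62-fold higher than mesoderm (adjusted p 3.73e-07). Without the hESC libraries in the filter and the fit the adjusted p was 7.90e-05 and 6.04e-05. Probes 381 and 383 passed the low-count filter only through the hESC reads for which the genes were chosen, so their differences between directed groups are described without a test. Each of the 4 endoderm libraries lay above each ectoderm and mesoderm library for every IDO1 probe. Calls were common in these comparisons. Between ectoderm and endoderm 79.7% of 903 tested probes had an adjusted p under 0.05 (39.9% higher and 39.9% lower in ectoderm), and 2 of the 4 probes that passed the filter without hESC did. Between mesoderm and endoderm the share was 76.2% (37.2% higher and 39% lower in mesoderm), and 3 of the 4 were called.

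In bulk lysates, fewer cells with a transcript and less of it per cell cannot be told apart, and this holds for every level given here. The proportions among IDO1 probes, which need no scaling between libraries, lay near each other in hESC and endoderm. Probe 382 held 57.2% ± 2.32 of IDO1 reads in hESC and 59.0% ± 4.48 in endoderm (SD, n = 4 each). Probe 383 held 32.9% ± 3.28 and 34.6% ± 4.16, and probe 381 held 9.88% ± 2.44 and 6.31% ± 2.94. The ranges overlapped for each probe, with 1147 IDO1 reads in hESC and 181 in endoderm.

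Most EB libraries carried IDO1, at very different levels. Among CEPT EB libraries probe 382 ranged from 0 to 55.2 CPM (median 9.94), probe 383 from 0 to 45.2 (median 6.52) and probe 381 from 0 to 10.0 (median 2.76). Among Y27 EB libraries probe 382 ranged from 0 to 29.1 CPM (median 3.19), probe 383 from 0 to 23.7 (median 7.75) and probe 381 from 0 to 5.67 (median 0.477). Summed IDO1 was at 26.6 ± 27.3 CPM for CEPT EB and 19.0 ± 18.0 for Y27 EB (SD, n = 16 each), so the spread was as wide as the level. CEPT EB replicate 7 was the highest and reached into the hESC range with probe 383 at 45.2 CPM. All IDO1 probes were at 0 in CEPT EB replicate 13 and in Y27 EB replicate 9.

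Some EB libraries read 1 IDO1 probe and missed another. At least 1 IDO1 probe was at 0 in 8 of 16 Y27 EB libraries and in 4 of 16 CEPT EB libraries. Y27 EB replicate 7 gave 53 reads with probe 383, 12 with probe 382 and 0 with probe 381. CEPT EB replicate 5 gave 49 reads with probe 382 and 0 with the other two. Across the 16 libraries of an arm, log2 CPM of probes 382 and 383 correlated at r = 0.72 for CEPT EB and 0.49 for Y27 EB, a description over libraries that share their depth.

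Averaged over both arms, EBs were higher than ectoderm and mesoderm with all 3 IDO1 probes. The bounds against ectoderm were 9.90-fold for probe 382 (edgeR adjusted p 0.000255), 7.94-fold for probe 383 (adjusted p 0.00198) and 2.20-fold for probe 381 (adjusted p 0.00707). Against mesoderm they were 9.90-, 7.94- and 2.20-fold (adjusted p 0.000251, 0.00203 and 0.00721). Single EB libraries at 0 overlapped with both groups. Of the 8 probes, 6 passed the filter without hESC in the comparisons with EBs. In EBs against ectoderm 5 of these were called, all higher, where 72.2% of 1016 probes were called (37.9% higher, 34.4% lower). In EBs against mesoderm 3 of the 6 were higher and 1 lower, where 71.4% were called (37.4% higher, 34% lower). In a fit without hESC, where 71% of 1013 probes were called, 3 of the 6 were called. CXCL5 probe 145, the lower one, was not called there (edgeR adjusted p 0.0663).

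EBs and endoderm were not told apart by IDO1. The log2 difference, EB minus endoderm, was 0.04 ± 0.83 for probe 382, 0.42 ± 1.05 for probe 383 and 0.89 ± 1.17 for probe 381 (SE). None of the 6 probes was called there by edgeR, and none had an unadjusted p under 0.05, while 77.5% of 1016 probes were called (41% higher, 36.4% lower). DESeq2 also called none of the 6.

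LCK was nearly all in hESC. Its probes gathered 617 reads in the 4 hESC libraries, 25 in ectoderm, 19 in mesoderm and 3 in endoderm. Probe 419 gave 4, 5, 5 and 3 reads in ectoderm replicates 1 to 4, 5, 2, 2 and 3 in mesoderm, and 1, 0, 0 and 1 in endoderm. Probe 421 gave 2, 2, 4 and 0 reads in ectoderm, 2, 1, 1 and 3 in mesoderm, and 0, 1, 0 and 0 in endoderm. Summed LCK was at 2.47 ± 1.32 CPM in ectoderm, 1.76 ± 0.70 in mesoderm and 0.305 ± 0.204 in endoderm (SD, n = 4 each), or 3.08%, 2.19% and 0.381% of hESC. No library of another group overlapped with hESC for either probe.

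LCK was read in a minority of EB libraries. Both probes were at 0 in 11 of 16 CEPT EB and 10 of 16 Y27 EB libraries. The highest counts of probe 421 were 14 reads in CEPT EB replicates 9 and 10 and 15 reads in Y27 EB replicate 6, and probe 419 reached 13 reads in CEPT EB replicate 10 and in Y27 EB replicate 7. Some libraries read both probes and others only 1. With probes 421 and 419, CEPT EB replicate 10 gave 14 and 13 reads and replicate 12 gave 3 and 2, while CEPT EB replicate 9 gave 14 and 0 and Y27 EB replicate 7 gave 0 and 13. Their log2 CPM correlated at r = 0.55 for CEPT EB and 0.09 for Y27 EB, a description over 16 libraries an arm, most of them at 0. Summed LCK was 1.05 ± 2.12 CPM for CEPT EB and 0.734 ± 1.09 for Y27 EB (SD, n = 16 each).

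Outside hESC no test is drawn on for LCK. Both probes passed the low-count filter only through the hESC reads for which the gene was chosen, and neither passed it without the hESC libraries, in the directed groups or with EBs. Each ectoderm and mesoderm library gave more reads with probe 419 (2 to 5) than each endoderm library (0 or 1). Set against 3 reads per endoderm library, the ectoderm mean of probe 419 was 1.26-fold and the mesoderm mean 0.866-fold that floor. The ectoderm mean of probe 421 was 0.640-fold that floor, and its libraries overlapped with endoderm. A ratio under 1 means that the group mean lay under that floor, so it sets no bound on the difference from endoderm.

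Summed over probes, CXCL5 kept more of its hESC level than IDO1 and LCK in each of the other groups, but its probes differed in how much. Probe 144 gave 7.74, 13.02, 14.9 and 10.9 CPM in ectoderm, 20.4, 29.6, 21.4 and 25.5 in mesoderm, and 17.5, 21.8, 20.8 and 17.1 in endoderm. These means are 25.7%, 53.5% and 42.7% of hESC. Probe 146 gave 2.71, 4.80, 2.79 and 5.15 CPM in ectoderm, 12.5, 16.3, 11.4 and 14.5 in mesoderm, and 9.42, 2.01, 3.05 and 9.72 in endoderm, where replicates 2 and 3 were low. Probe 145 gave 6.79, 6.46, 8.07 and 5.82 CPM in mesoderm, but only 1 to 3 reads per library in ectoderm and 1 read in each endoderm library. Mesoderm thus had 44.3% of the hESC level of probe 145, ectoderm 5.04% and endoderm 2.82%. The ectoderm and endoderm values come from counts at or under the floor of 3 reads per library. The IDO1 probes kept 8.77% to 13.5% in endoderm, the lowest being probe 381 with 1 to 5 reads per library. Counts this low do not settle the order of 2.82% and 8.77%.

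Mesoderm was above ectoderm with all 3 CXCL5 probes, without overlap between libraries. Probe 145 was higher in mesoderm (edgeR adjusted p 6.66e-07). Its mesoderm mean was 5.97-fold the floor of 3 reads per ectoderm library, where 1, 1, 3 and 3 reads were found. Ectoderm minus mesoderm was -1.48 ± 0.34 on the log2 scale for probe 146 (SE, adjusted p 0.000607) and -0.75 ± 0.20 for probe 144 (adjusted p 0.00232). These were the calls among 4 probes that passed the filter without hESC, all lower in ectoderm, where 80.2% of 903 probes were called (42% higher, 38.2% lower). The call of probe 144 was lost when libraries were scaled on ACTB, GAPDH and PGK1 (log2 difference -0.40, adjusted p 0.0945; range over its alternatives 0.000218 to 0.0945). Against endoderm, mesoderm was higher with probe 145 (edgeR adjusted p 1.04e-07), at 5.24-fold the floor of 3 reads per endoderm library. Mesoderm was also higher than endoderm by 1.00 ± 0.32 with probe 146 (edgeR adjusted p 0.00917). Probe 144 differed by 0.16 ± 0.19 (adjusted p 0.461), but was called with other scalings, at 0.51 with upper-quartile factors, 0.78 with library totals and 0.61 with the reference genes.

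Endoderm was above ectoderm with CXCL5 probe 144 (ectoderm minus endoderm -0.59 ± 0.21, SE, edgeR adjusted p 0.0142), a result that depended on the scaling. It was -0.38 with upper-quartile factors (adjusted p 0.102), -0.18 with library totals (0.429) and turned to 0.21 with the reference genes (0.389). The call was also lost without ectoderm replicate 1 (0.0820) or endoderm replicate 2 (0.0553; range 0.00572 to 0.429). Probe 146 did not pass (-0.48 ± 0.38, adjusted p 0.257). CPM use factors of all 48 libraries and each test those of its own libraries, so ratios of mean CPM and fitted differences can differ in size.

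**Figure D2:**
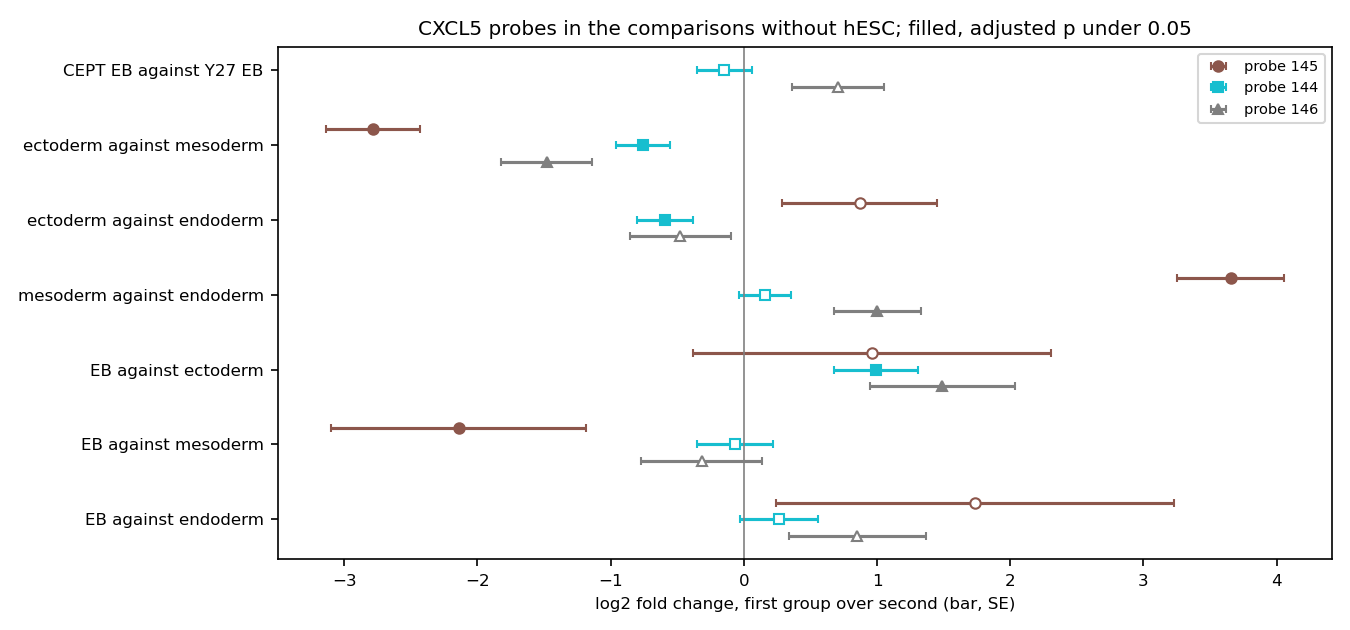
Log2 fold change of each CXCL5 probe (x axis, first group over second, bars are SE) in the 7 comparisons without hESC (y axis), filled where edgeR's adjusted p was under 0.05. All 3 probes are filled and negative in ectoderm against mesoderm, and probe 145 has a wide SE in the comparisons with EBs.

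Every EB library held CXCL5 probes 144 and 146. Probe 144 ranged from 9.55 to 42.5 CPM (median 18.5) among CEPT EB libraries and from 12.7 to 43.4 (median 25.3) among Y27 EB libraries, and its highest libraries reached into the hESC range. Probe 146 ranged from 2.57 to 30.5 CPM (median 12.7) and from 1.31 to 17.2 (median 8.05). Probe 145 was at 0 in 8 of 16 CEPT EB and 10 of 16 Y27 EB libraries, and reached 12.9 CPM in CEPT EB replicate 7 and 7.72 in Y27 EB replicate 14.

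EBs were above ectoderm with CXCL5 probe 144 (log2 difference 0.99 ± 0.31, SE, edgeR adjusted p 0.00455) and probe 146 (1.49 ± 0.55, adjusted p 0.0135). The call of probe 146 was lost without ectoderm replicate 1 (0.0505) or 3 (0.0518) and with the Y27 arm alone (0.0683; range 0.00357 to 0.0888). Probe 145 was lower in EBs than in mesoderm (-2.14 ± 0.96, adjusted p 0.0430). That call ended in 14 of 16 alternatives. Among them were DESeq2 (adjusted p 0.165), the CEPT arm alone (0.208) and a fit without the hESC group (0.0663). Others left out CEPT EB replicate 13 (0.0666), Y27 EB replicate 15 (0.0557) or each mesoderm library in turn (0.106 to 0.141). The range of its adjusted p over the alternatives was 0.00668 to 0.324. Probes 144 and 146 differed from mesoderm by -0.07 ± 0.28 and -0.32 ± 0.46 and were not called. With the reference genes probe 144 was called higher in EBs (1.01, adjusted p 0.00848; range 0.00848 to 0.999). Against endoderm, probes 144 and 146 were called higher with library totals (1.03 and 1.63, adjusted p 0.00321 and 0.00586) and with the reference genes (1.62 and 2.18, adjusted p 9.88e-05 and 0.000684), and probe 146 also with upper-quartile factors (0.0332) and the CEPT arm alone (0.0224).

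The share of a library's CXCL5 reads held by each probe needs no scaling, and was examined after these values were seen. Probe 145 held 15.4% ± 3.08 in hESC and 15.5% ± 3.60 in mesoderm, against 4.61% ± 2.38 in ectoderm and 1.69% ± 0.283 in endoderm (SD, n = 4 each). Each mesoderm library lay above each ectoderm and endoderm library. The exact permutation test gave p = 0.0286 (two-sided) for both, the smallest that 4 against 4 libraries allow, and 0.0700 adjusted over 12 comparisons. Probe 144 held 71.3% ± 5.68 in ectoderm and 75.6% ± 14.1 in endoderm against 54.0% ± 2.47 in mesoderm, again without overlap and with the same exact p-values. In EBs probe 144 held 58.9% ± 17.1 for CEPT and 72.2% ± 15.6 for Y27 (SD, n = 16 each; permutation p 0.0292, adjusted 0.0700). None of the 12 comparisons passed after adjustment. Whether reads of CXCL6, a close paralog with no probe on the panel, could enter these counts is not given in the sources used here.

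**Figure D3:**
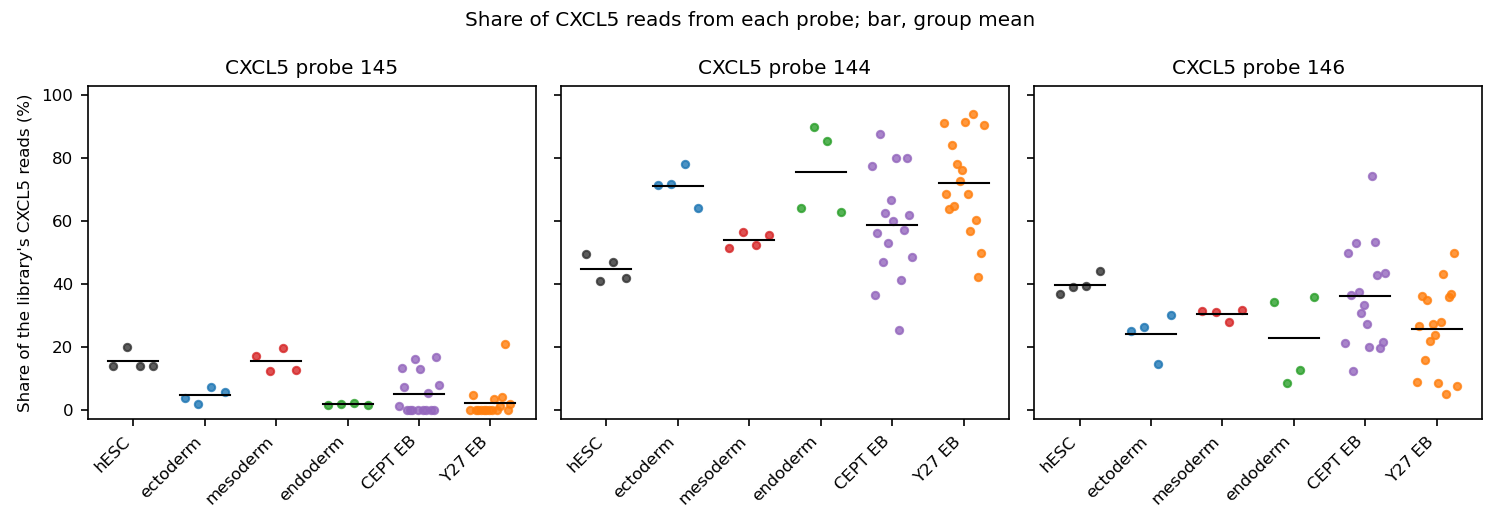
Share of a library's CXCL5 reads from each probe (y axis, percent) in every library of the 6 groups (x axis), with a bar at each group mean. Probe 145 lies between 12.3% and 20.0% in all hESC and mesoderm libraries and at most at 7.32% in ectoderm and endoderm.

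CEPT EB against Y27 EB compares what the different first-day treatments left behind at day 7. Of the 8 probes, 4 passed the low-count filter (IDO1 382 and 383, CXCL5 144 and 146) and none was called by edgeR, while 23.6% of 867 probes were (10.6% higher, 13% lower). CXCL5 probe 146 came nearest, with CEPT minus Y27 at 0.71 ± 0.34 on the log2 scale (SE, p 0.0463, adjusted p 0.138), the only 1 of the 4 with an unadjusted p under 0.05. CXCL5 probe 144 differed by -0.15 ± 0.21 (adjusted p 0.670), IDO1 probe 382 by 0.37 ± 0.59 (adjusted p 0.710) and IDO1 probe 383 by 0.40 ± 0.72 (adjusted p 0.745). The arms overlapped for every probe. No alternative called any of the 4, DESeq2 included (adjusted p over alternatives 0.0746 to 0.374 for CXCL5 146 and 0.378 to 0.973 for IDO1 382).

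Relative to hESC, all 8 probes had lower means in every other group, which is how the genes were chosen and carries no test. Over the panel 81.7% of 903 probes were called in ectoderm against hESC (43.2% higher, 38.5% lower), 77.5% in mesoderm (34% and 43.5%), 78.2% in endoderm (38.4% and 39.8%), and 71.9% of 1016 in EBs (36.5% and 35.4%). IDO1 probe 382 was at least 74.8-fold lower in ectoderm and mesoderm than in hESC, LCK probe 419 at least 35.3-fold lower in endoderm and CXCL5 probe 145 at least 11.8-fold lower in endoderm. In EBs the log2 difference ran from -0.96 for CXCL5 probe 144 to -6.56 for LCK probe 419. For CXCL5 probe 144 the direction rested on the scaling, since it was 0.81 with the reference genes, which moved the median log2 difference of all probes by 1.72.

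The order of the summed means differed by gene. IDO1 ran hESC, CEPT EB, Y27 EB, endoderm, then ectoderm and mesoderm at 0. LCK ran hESC, ectoderm, mesoderm, CEPT EB, Y27 EB, endoderm. CXCL5 ran hESC, mesoderm, CEPT EB, Y27 EB, endoderm, ectoderm. Between neighbours in the order of each probe, hESC stood clear of the next group except for IDO1 probe 383. For CXCL5 probe 144 that next group was mesoderm, and hESC overlapped with the CEPT and Y27 EB arms further down the order. Endoderm stood clear of ectoderm for IDO1 probes 381 and 383 and CXCL5 probe 144. All other neighbours overlapped.

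The 6 other genes of the scorecard's self-renewal set have 13 probes and took several courses. Against hESC, 13 of 13 probes were lower in mesoderm, 11 lower and 2 higher in endoderm, 6 lower and 5 higher in ectoderm, and 12 lower in EBs (edgeR). Their median log2 difference was -6.22 in mesoderm, -4.82 in endoderm, 0.01 in ectoderm and -1.92 in EBs, beside -0.18, 0, 0.14 and 0.23 for all tested probes. NANOG, the pluripotency homeodomain factor, was at 0.116 CPM in ectoderm, 5.18 in mesoderm, 76.6 in endoderm, and 48.4 and 35.7 in the CEPT and Y27 EB arms, so it had the same 2 lowest groups as IDO1. POU5F1, with 1 probe at a low level in hESC, did not share these groups. It was at 0 CPM in ectoderm and endoderm and 0.0943 in mesoderm. HESX1 was at 107% of hESC in ectoderm and 178% in endoderm. SOX2, which neural cells keep, rose in ectoderm from 1280 to 6640 CPM. TRIM22, an interferon-induced antiviral protein, rose to 118 CPM in ectoderm from 75.8 and fell to 1.83 in endoderm. DNMT3B, a DNA methyltransferase, fell to between 9.41% and 16.4% of hESC in the other groups.

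**Figure D4:**
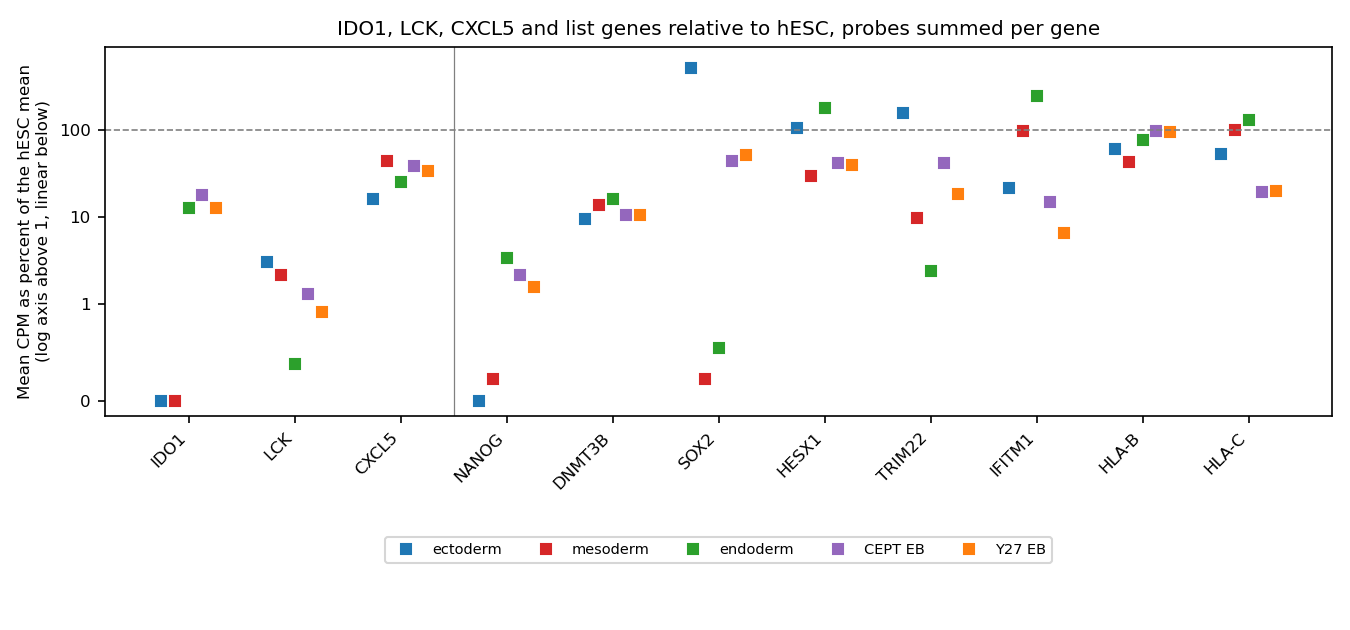
Mean CPM in 5 groups as a percent of the hESC mean (y axis, log above 1 and linear below, dashed line at 100%), probes summed per gene, for IDO1, LCK and CXCL5 left of the vertical line and list genes right of it. IDO1 and NANOG have ectoderm and mesoderm as their lowest groups, and IFITM1 in endoderm is at 248%.

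Panel genes that respond to interferon took several courses across the groups. They were 5 of 39 listed genes, IFITM1 and TRIM22 among them, with 10 probes. Against hESC, 5 probes were higher and 5 lower in ectoderm, 4 higher and 5 lower in mesoderm, 4 higher and 3 lower in endoderm, and 0 higher and 7 lower in EBs, with medians of -0.14, -0.23, 0.28 and -1.70. IFITM1, an antiviral membrane protein, was at 34875 CPM in hESC, 7509 in ectoderm, 34459 in mesoderm and 86509 in endoderm. In mesoderm, where IDO1 was at 0 reads, IFITM1 held 98.8% of its hESC level and HLA-C 99.9%. HLA-B held 42.6% there and TRIM22 9.72%. Interferon signalling was not tested. The shares of all probes called in these comparisons were 43.2% higher and 38.5% lower in ectoderm, 34% and 43.5% in mesoderm, 38.4% and 39.8% in endoderm, and 36.5% and 35.4% in EBs. The EB medians of this list and of the self-renewal list are of the size of the shift of 1.72 that reference gene scaling gave all probes in EBs against hESC, and the lists were not refitted with it. Between the EB arms 3 of the 10 probes were higher for CEPT and none lower (edgeR; median 0.46, beside -0.04 for all probes), where 10.6% of all 867 tested probes were higher and 13% lower. They were IFITM1 386 (log2 difference 1.20 ± 0.38, adjusted p 0.0187), IFITM1 384 (1.09 ± 0.39, adjusted p 0.0399) and TRIM22 1151 (1.19 ± 0.31, adjusted p 0.00441).

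SLC7A5, a subunit of a transporter that carries tryptophan into cells, was the only other tryptophan gene of 16 listed on the panel. It rose from 293 CPM in hESC to 1190 in mesoderm and 5173 in endoderm and fell to 52.3 in ectoderm, with 3 of 3 probes called each time. TNFRSF1A, a TNF receptor and the only gene present of 35 listed chemokine and NF-kB genes, was called in no directed group against hESC (0 of 2 tested probes) and fell in EBs with 2 of 3 probes, under the same limit of scaling. No other Src family or T cell receptor gene of 24 listed was on the panel. Of 33 listed blood and immune markers 4 were. PTPRC (CD45), carried by white blood cells, was at 0 in hESC, ectoderm and endoderm and at most 3.12 CPM in any library. CD7, found on T cells, was at most 2.57 CPM and PECAM1 at most 3.52 CPM in any library. NCAM1, on natural killer cells but also on neural and mesoderm cells, was at 37.1 CPM in hESC and 603 in mesoderm.

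The genes most like each of the 3 over all 48 libraries were named by Pearson correlation of summed log2 CPM, among 351 genes with a mean of at least 50 CPM in some group. This is a description, since libraries share groups and depth and include the hESC libraries by whose level the genes were chosen. LCK had few reads outside hESC, so a high r with it need not mean more than a high level in hESC. For IDO1 they were GDF3 (0.86), NANOG (0.85), CNTN1 (0.71), TDGF1 (0.68) and UGP2 (0.68). GDF3, a TGF-beta family ligand, had 332 CPM in hESC, 0 in ectoderm, 1.44 in mesoderm, 57.9 in endoderm and 20.9 and 20.0 in the CEPT and Y27 arms. For LCK they were DUSP6 (0.82), PPP1R1B (0.82), HSPD1 (0.79), MT1F (0.78) and MYC (0.78). DUSP6, a phosphatase of ERK, had 1119 CPM in hESC and between 32.2 and 176 in the other groups. For CXCL5 they were CD24 (0.81), ZFP42 (0.79), MT1G (0.72), CD9 (0.70) and MT1X (0.70). CD24, a surface glycoprotein, had 51597 CPM in hESC, 6083 in ectoderm and 19784 in mesoderm.

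The spread of IDO1 among EBs was set against the other list genes within each arm, a test added after the values were seen. With 16 libraries per arm and probes summed, 36 relations of IDO1 and CXCL5 with 9 genes were computed (two-sided permutation tests, 100000 resamples, adjusted over the 36). By Pearson's r, IDO1 passed in 6 of 18 relations and CXCL5 in 1 of 18, and IFITM1 with IDO1 was the only pair that passed in both arms. By Spearman's rho, IDO1 passed in both arms with NANOG, DNMT3B and SOX2. SOX2 gave rho = 0.75 for CEPT and 0.77 for Y27 (permutation, adjusted p 0.0122 and 0.00948). By r SOX2 did not pass (0.55 and 0.52, permutation, adjusted p 0.0641 and 0.0941). Scaled on library totals, r for CEPT and Y27 was 0.37 and 0.29 with SOX2. With DNMT3B it was 0.50 and 0.42 (0.62 and 0.58 with TMM). With NANOG it was 0.87 and 0.53, and with IFITM1 0.71 and 0.81.

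EBs with more IDO1 held more NANOG. The CEPT arm gave r = 0.87 (permutation p 0.000150, adjusted 0.00216) and rho = 0.68 (permutation p 0.00479, adjusted 0.0246), with r = 0.55 without the 2 libraries farthest from the IDO1 median, replicates 13 and 7. The Y27 arm gave r = 0.57 (permutation p 0.0240, adjusted 0.0641) and rho = 0.70 (permutation p 0.00382, adjusted 0.0229), with r = 0.53 without replicates 9 and 10. For IFITM1 and IDO1 the Y27 arm gave r = 0.81 (permutation p 0.0001, adjusted 0.00216) and rho = 0.77 (permutation p 0.000770, adjusted 0.00948), and r was 0.73 without the 2 farthest. The CEPT arm gave r = 0.71 (permutation p 0.00320, adjusted 0.0192) and rho = 0.53 (permutation p 0.0366, adjusted 0.0823), which rested on replicates 13 and 7, since r was 0.27 without them.

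All other pairs that passed by r did so in the CEPT arm, and differences between the arms were not tested. IDO1 and DNMT3B gave r = 0.62 (permutation p 0.00728, adjusted 0.0374) and rho = 0.62 (permutation p 0.0125, adjusted 0.0408), with r = 0.57 without the 2 farthest libraries. IDO1 and HLA-C gave r = 0.79 (permutation p 0.00212, adjusted 0.0153) and rho = 0.48 (permutation p 0.0613, adjusted 0.116) and rested on replicates 13 and 7, at r = 0.22 without them. CXCL5 and IFITM1 gave r = 0.79 (permutation p 0.000180, adjusted 0.00216) and rho = 0.82 (permutation p 0.000210, adjusted 0.00756), with r = 0.75 without replicates 7 and 6. In the Y27 arm CXCL5 and IFITM1 gave r = 0.45 (permutation p 0.0768, adjusted 0.154) and rho = 0.49 (permutation p 0.0585, adjusted 0.116). IDO1 correlated with log2 total reads at r = 0.49 in the CEPT arm and 0.10 in the Y27 arm, and the part of depth in these relations was not tested. CXCL5 probes 144 and 146 hardly followed each other among EBs (r = 0.16 for CEPT and -0.06 for Y27).

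**Figure D5:**
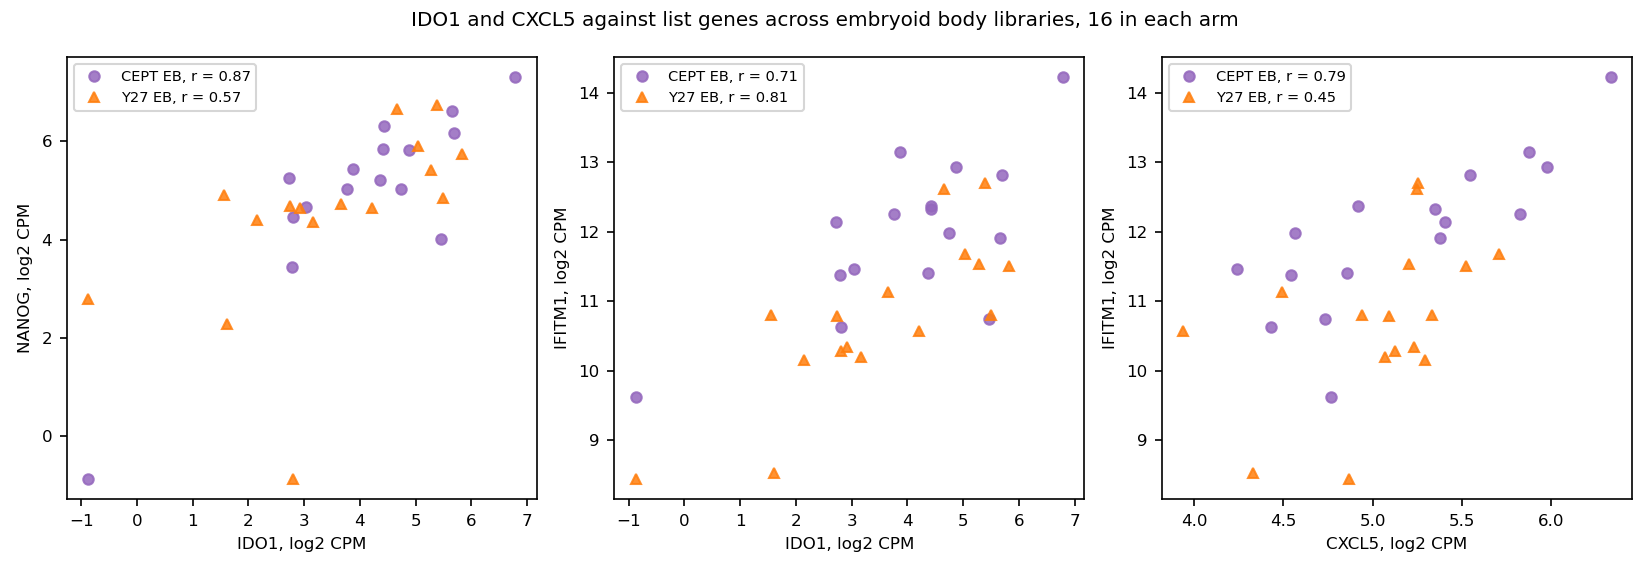
Log2 CPM of IDO1 or CXCL5 (x axes) against NANOG or IFITM1 (y axes) in the 16 CEPT EB (circles) and 16 Y27 EB (triangles) libraries, probes summed per gene, with Pearson's r for each arm. In the panel of IDO1 and NANOG the circles at the lower left and upper right are CEPT EB replicates 13 and 7, and r for CEPT falls from 0.87 to 0.55 without them.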

How the data were processed

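RASL-Seq probe reads of 48 WA09 libraries were obtained by sequencing after TCL lysis and oligo-dT capture, per the labels' protocols. The authors deposited raw read counts per probe, made with a custom aligner per the labels; its settings and the probe sequences are not given in the sources used here. The submitters' processing notes name hg38 and DESeq2, with no role. The merged table repeats the counts of the 48 libraries, checked as identical, and 16 columns that match no label were left out.

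Counts were tested with edgeR 4.0.16 (R 4.3.3): filterByExpr, TMM, robust quasi-likelihood fit, two-sided, Benjamini-Hochberg over all probes tested, threshold 0.05. The EB arms were fitted with 32 libraries, the directed groups and hESC with 16, and EBs (mean of both arms) against these with all 48. CPM used factors of all 48, and log2 CPM a prior count of 2. For a group with no library over 3 reads, sizes are bounds against 3 reads per library. On simulated data the tests called 90.7% of changed probes for CEPT EB against Y27 EB. The share was 93.8% for ectoderm against mesoderm and 70.2% for EBs against ectoderm (63.6% of 2-fold changes). Of these calls 2.78%, 3.17% and 6.71% were false. With no change simulated, 0, 0 and 1 probes were called. No 2 libraries of a group agreed to within sampling noise (smallest chi-square over its degrees of freedom, 4.93).

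All 8 probes are named, with panel genes of fixed lists and the 5 genes most like each of the 3. These genes, lists and tests were chosen with earlier results of these data known. A fit without the hESC group was added after seeing the data, since the genes were chosen by their hESC level, and probes that pass the filter only with hESC are described without a test. A gene of the lists is counted but not reported by name here. Alternatives were other scalings, filters, DESeq2 1.42.0, a replicate block, probes summed per gene, single EB arms, other sets of libraries and left-out libraries. In EBs against other groups, CEPT EB replicate 13 and Y27 EB replicate 15 were the only EB libraries left out. Correlations within arms and probe shares were added after seeing the data. Python 3.11.15 with scipy 1.17.1 and matplotlib 3.10.9 was used.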

Additional observations from a re-analysis of the deposited data

Results flagged for a closer look

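Among 26 combinations of a group of 4 libraries and a probe of IDO1, LCK or CXCL5 with any reads, 1 had a library that stood apart from the other 3. LCK probe 421 in endoderm replicate 2 had a log2 CPM of -0.0779, against -0.877 in the others. The gap is 1 read among 3704542, against 0 reads in the other 3 libraries. This is 3.85% of the combinations, and chance flags about 5%.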

How the results depend on the processing

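Of 24 calls for the 8 probes in comparisons without hESC, 7 were of probes that passed the filter only through hESC and are not used. Of the other 17, 13 held in all alternatives that could be fitted, among them the 8 calls of IDO1. Of 32 differences from hESC, 31 kept their direction. The genes were chosen for this direction, so the count is a description and not a test. Requiring 10 reads in every library, which tests fewer probes, gave 409 calls in ectoderm against mesoderm, 402 in ectoderm against endoderm, 399 in mesoderm against endoderm, 435, 392 and 398 in ectoderm, mesoderm and endoderm against hESC, and 341, 363, 375 and 355 in EBs against ectoderm, mesoderm, endoderm and hESC. Summing probes per gene, which tests fewer features, gave 339, 335, 322, 333, 316, 331, 323, 322, 351 and 337 in the same order, and 112 in CEPT EB against Y27 EB (main counts 724, 720, 688, 738, 700, 706, 734, 725, 787, 731 and 205). Library totals gave 339 in CEPT EB against Y27 EB, of which 14.2% were higher for CEPT against 44.9% with TMM and 60.5% with DESeq2.

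Reference gene scaling shifted the median of all probes by 1.72 in EBs against hESC, 1.32 against endoderm and 1.05 against mesoderm, with 86.2%, 77.05% and 74.9% of calls higher, and by 1.28 in ectoderm against hESC (76.3% higher), 0.90 in mesoderm against hESC (71.7%) and 0.79 in ectoderm against endoderm (69.1%). It turned CXCL5 144 and 146 in ectoderm against endoderm to 0.21 and 0.32, CXCL5 144, CXCL5 146 and LCK 421 in EBs against mesoderm to 1.01, 0.735 and 0.40, and CXCL5 144 in EBs against hESC to 0.81. CXCL5 144 in EBs against mesoderm, near 0, also turned to 0.15 with median-ratio factors and with DESeq2, 0.12 with upper-quartile factors, 0.25 with library totals, 0.10 without a filter, 0.24 with the Y27 arm alone and 0.0342 to 0.226 with 1 library left out. With the CEPT arm alone CXCL5 146 and LCK 421 turned to 0.14 and 0.16 in that comparison. IDO1 382 in EBs against endoderm turned to -0.0212 with median-ratio factors, -0.0298 with DESeq2 and -0.0690 with the Y27 arm alone. It ranged from -0.0859 to 0.309 with 1 library left out and was -0.103 without the hESC group. In these EB comparisons the only EB libraries left out were CEPT EB replicate 13 and Y27 EB replicate 15. CEPT EB replicate 7, the highest in IDO1, was not left out on its own. LCK 421 in ectoderm against mesoderm ranged from -0.156 to 0.974 with 1 library left out. The LCK values come from probes that pass the filter only through hESC, so they are descriptions and nothing rests on them. The cause of these shifts was not tested.

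Replicate numbers did not pair the EB arms: 3 of 16 same-numbered pairs correlated over 0.1 (r -0.27 to 0.17). All same-numbered pairs of directed groups correlated above 0. Their r was 0.05 to 0.58 in ectoderm against mesoderm, 0.07 to 0.45 in ectoderm against endoderm and 0.04 to 0.46 in mesoderm against endoderm. The medians were 0.19, 0.16 and 0.12, beside -0.05, -0.04 and -0.04 for other pairs, and 3, 3 and 2 of 4 pairs were over 0.1. The main fits did not use these numbers. In ectoderm against endoderm all 4 correlated best with their own number, a hint from the data and not the design. With the replicate block, counts were 167 in CEPT EB against Y27 EB, 741 in ectoderm against mesoderm and 709 in EBs against ectoderm. The block turned CXCL5 145 in EBs against ectoderm to -0.18, and IDO1 382 and 383 in EBs against endoderm to -0.28 and -0.12. LCK 419 and 421 went to -0.95 and -2.17 in EBs against endoderm. These LCK values are descriptions, since both probes pass the filter only through hESC. With the block the call of CXCL5 146 in EBs against ectoderm was lost (edgeR adjusted p 0.0888). Depth limits LCK outside hESC, where no library gave over 15 reads with a probe.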
